A study of Mus musculus with 8 samples.

Results

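Def6-/- calvarial osteoblastic cells were compared with wild-type (WT) cells after 12 days of osteogenic culture, with 2 libraries of each genotype out of 8 libraries in the study. The genes compared were all those whose mean CPM (reads scaled to a library of fixed total) reached at least 1 in either genotype at this time, which held for 12080 of 24421 genes in the deposited files. The other 4 libraries, 2 of each genotype, were made at day 0, before osteogenic culture. WT and Def6-/- mice were both on the C57BL/6 strain, and the Def6-/- mice had been backcrossed to this background repeatedly. Cells were released with collagenase and dispase from the calvariae of newborn pups aged 0 to 3 days, and both genotypes received the same α-MEM with serum, ascorbic acid and β-glycerophosphate. By the study's methods the WT pups were littermates of the Def6-/- pups, and the labels give neither their sex nor whether pups were pooled. The RNA came from whole cultures, so a lower level of a gene can mean fewer cells of a type or less RNA per cell, which cannot be told apart here.

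Def6 encodes a guanine nucleotide exchange factor that activates small GTPases, and it is known mainly from T cells, B cells and myeloid cells. Type I interferons bind the receptor formed by Ifnar1 and Ifnar2, which acts through the kinases Jak1 and Tyk2 on a complex of transcription factors that includes Stat2 and Irf9 and binds the interferon-stimulated response element (ISRE) before interferon-stimulated genes (ISGs). Osteoblasts lay down the collagen matrix of bone and mineralize it, and some of them become osteocytes, which secrete sclerostin, an inhibitor of Wnt signalling.

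Reads on genes numbered 2414856 to 3482837 per library at day 12, which was 29.7% to 35.3% of all reads of a library. The libraries of a genotype were not alike. WT replicate 2 had 8.41% of its reads unaligned, against 4.02% to 5.31% in the other 3, and 42433 normalized CPM on the ribosomal RNA gene Rn45s, against 4374 to 17655. Y-linked genes summed to 47.9 normalized CPM in WT replicate 1 and 112 in Def6-/- replicate 2, but to 0.419 in WT replicate 2 and 0.411 in Def6-/- replicate 1, so each genotype had a library with Y-linked reads and a library at background. The X inactivation gene was at 276 and 443 in WT and 431 and 149 in Def6-/- replicates 1 and 2, so the libraries with Y-linked reads held it too. The mix of sexes in a library was not tested. The median gene differed by 0.18 in log2 units between the WT libraries, by 0.19 between the Def6-/- libraries and by 0.13 between the genotype means.

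At day 12, 97 genes were higher (0.803% of those compared) and 72 were lower (0.596%) in Def6-/- than in WT cells. Genes were called by limma, at p under 0.05 before adjustment and at more than 1.2-fold, on log2(normalized CPM + 1), where normalized CPM is the CPM of reads on genes after TMM scaling. All log2 fold changes are Def6-/- minus WT on this scale, and for genes with few reads such values are smaller than the true fold. The 169 called genes are 1.40% of those compared, which is less than the share of 0.05 that this p threshold passes where no gene differs. Their number is therefore no excess of differences. After Benjamini-Hochberg adjustment only Def6 passed at 0.05 (limma adjusted p = 0.0012), while the adjusted p of each other gene was 1. Without 1 library at a time, the number of genes called higher ranged from 51 to 120 and the number called lower from 45 to 69. The calls below are therefore a ranking by size against replicate spread, with each gene's values shown beside it.

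All 169 called genes had libraries that did not overlap between genotypes. Over all genes compared, both Def6-/- libraries lay above both WT libraries for 2042 genes (16.9%) and below both for 1926 (15.9%). The higher genes had a median log2 fold change of 1.02 and the lower genes one of -0.94, while 90% of all genes lay between -0.42 and 0.43. Of the called genes, 52 of the higher and 35 of the lower averaged under 10 normalized CPM, a share that was not counted over all genes. Called genes reached 1 CPM in only 1 genotype in 53 of 169 cases, compared with 470 of 12080 genes. These 53 were compared only through the genotype where they are higher, so the minimum itself set part of their difference. Besides Def6 they include Zbp1, Oas1a, Oas1b, Oas3, Ccl4, Fgd2 and Lst1, which passed in WT only. Sost, Ppfia2, Car10, Bmp5, Stc2, Adamts15, Adipoq, Cfd and Rbp4 passed in Def6-/- only.

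**Figure D1:**
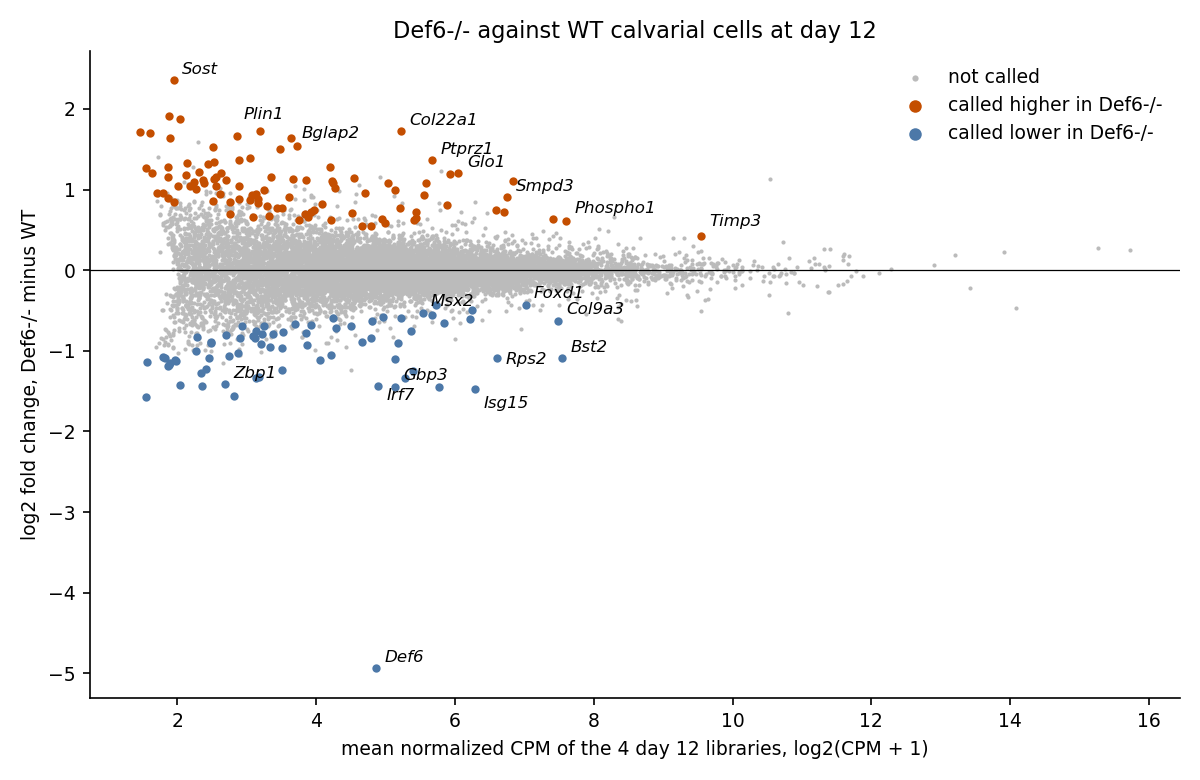
Log2 fold change (Def6-/- minus WT, vertical axis) against mean level of the 4 day 12 libraries (log2(normalized CPM + 1), horizontal axis) for the 12080 genes, with 97 called higher in orange and 72 called lower in blue. Def6 stands alone at -4.94, and most called genes lie at the low-level end of the plot.

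Def6 was at 53.4 and 57.4 normalized CPM in WT replicates 1 and 2 and at 0.821 and 0.854 in Def6-/- replicates 1 and 2. Its log2 fold change was -4.94 with a standard error of 0.31. Counted in reads, it was 65.7 times lower, with a 95% exact interval for counting error of 25.4 to 243, so both Def6-/- libraries match their label. Swap70, the closest relative of Def6, was at 66.6 and 75.4 in WT and at 86.2 and 64.9 in Def6-/- cells, with overlapping libraries. Fgd2, an exchange factor for Cdc42, was lower in Def6-/- cells (8.90 and 4.19 in WT, 2.46 and 1.71 in Def6-/-, log2 fold change -1.23, standard error 0.49). It lies 1.13 Mb from Def6 and passed the CPM minimum in the WT group only, with WT replicate 1 over 2-fold above WT replicate 2.

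Of the gene lists examined, ISGs held the most lower genes. Of 89 ISGs compared, 23 were lower in Def6-/- cells, against 0.596% of all genes, and 0 were higher. Among the 23, Zbp1, Oas1a, Oas1b and Oas3 passed the CPM minimum in WT only, so the minimum itself set part of their difference. Of the 89, 70 had both Def6-/- libraries below both WT libraries, against 15.9% of all genes. The list's median log2 fold change was -0.58, while the median of all genes was 0.00, and 88 of its 89 members had a negative value. The exception was Ifitm2, a membrane protein that restricts virus entry, at 270 and 173 in WT and 258 and 268 in Def6-/- cells. WT replicate 2 had the highest mean level of the list. This level was 4.92 and 5.21 in WT and 4.45 and 4.4 in Def6-/- libraries on the log2(normalized CPM + 1) scale. Without WT replicate 2, 5 ISGs were called lower and the median was -0.40, and without WT replicate 1, 20 were called lower and the median was -0.70, with Ifitm2 then called higher. Without Def6-/- replicate 1 or replicate 2, 11 and 6 were called lower.

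By role, the ISGs that fell covered GTPases, RNA sensors, antiviral effectors and the transcription factors of the pathway. Gbp3, a guanylate-binding protein, was at 38.5 and 63.2 normalized CPM in WT and 20.5 and 14.9 in Def6-/- cells, and its log2 fold change of -1.44 (standard error 0.36) was called without each library in turn. The immunity-related GTPases Igtp (21.2 and 33.1 against 16.4 and 15.8) and Iigp1 (29.3 and 39.8 against 16 and 21.8) were lower, as was Ifi47 of the same family (15.8 and 20.5 against 9.03 and 8.96), which was not on the list. Reads of the Gbp genes, like those of the Oas genes below, can be split between near-identical copies.

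Zbp1, a sensor of Z-form nucleic acid, was at 7.17 and 9.63 in WT and 2.46 and 2.56 in Def6-/- cells (log2 fold change -1.41, standard error 0.34). It passed the CPM minimum in the WT group only. Dhx58, an RNA helicase of the RIG-I family, was at 25.8 and 38.1 against 19.3 and 14.1. In contrast to Zbp1, whose replicates lay close together, Isg15 and Bst2 had WT replicate 2 well above WT replicate 1. Isg15, a ubiquitin-like modifier, was at 78.1 and 152 in WT and 42.3 and 35.4 in Def6-/- cells (-1.47, standard error 0.59). Bst2, or tetherin, which holds budding virus at the membrane, was at 194 and 312 against 147 and 90.1 (-1.09, standard error 0.40). The 2'-5'-oligoadenylate synthetase genes Oas1a, Oas1b, Oas3 and Oasl2 were all lower, with log2 fold changes between -1.56 and -1.15. Oas1a, Oas1b and Oas3 passed the CPM minimum in the WT group only. Oasl2 was the most abundant of these genes (56.5 and 102 against 31.2 and 23.9).

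Transcription factors of the interferon pathway were lower in part. Irf7, the factor that amplifies interferon transcription, was at 29.0 and 56.5 in WT and 15.6 and 13.2 in Def6-/- cells, and Irf9 was at 67.2 and 70.8 against 47.6 and 39.7 (log2 fold change -0.65, standard error 0.28). Stat2 (92.4 and 108 against 75.1 and 55.9) did not overlap between genotypes but was not called, with a log2 fold change of -0.61. On the receptor side, of 15 interferon receptors and signalling kinases 0 were called, 8 had a positive and 7 a negative value, and the median was 0.02. Of 15 genes on a separate list of cytosolic nucleic acid sensing 0 were called, and the median was 0.00. That list shares no gene with the ISG list, where Zbp1, Dhx58 and the Oas genes above were counted. Mx1 and Ifnb1 did not reach the CPM minimum and have no value.

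Genes of antigen presentation by MHC class I shared the direction of the ISGs. Of 18 compared, 3 were lower, 0 were higher, 16 had a negative value, and the median was -0.38; 7 of the 18 are also on the ISG list. Nlrc5, the transactivator of class I genes, was at 11.5 and 13 in WT and 4.93 and 6.83 in Def6-/- cells (-0.96, standard error 0.40). H2-Q4 was at 30.7 and 63.6 against 27.5 and 14.5, and H2-T23 at 53.4 and 46.5 against 39.8 and 21.3. Both of these called genes lie near Def6 on chromosome 17. How many of the uncalled members also lie near Def6 was not counted. B2m, the light chain of class I molecules and the most abundant member, was at 811 and 948 against 731 and 625 and was not called (-0.38). The class II genes, with 4 compared, had a median of 0.02. Without WT replicate 2 or Def6-/- replicate 2, 0 of the class I genes were called.

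Promoters of the lower genes were searched for the ISRE core, GAAANNGAAA on either strand, in RefSeq windows from 250 bases before to 50 bases after the gene start (build GRCm38.p6, which is mm10). Such a core stood in 10 of 53 lower genes with a window (18.9%), in 1 of 66 higher genes (1.52%) and in 350 of 9655 of all genes compared (3.63%). Of the lower genes outside the ISG list, 2 of 38 held it (5.26%). ISGs that were not called held it in 25 of 53 cases (47.2%). The GAS motif TTCNNNGAA was in 13.2% of lower, 3.03% of higher and 8.11% of all genes, the RUNX site TGTGGT in 13.2%, 18.2% and 14.5%, and the CCAAT box in 45.3%, 34.8% and 42.6%. A match of letters is a description and no evidence that a factor binds there.

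The 250 bases before the start of the 4 lower genes of smallest p that hold a core show how it lies; capitals mark the core, or its reverse complement where it is on the other strand, and each sequence runs 5′ to 3′ on the gene's strand.
Gbp3 (chr3:142559794-142560043, plus strand): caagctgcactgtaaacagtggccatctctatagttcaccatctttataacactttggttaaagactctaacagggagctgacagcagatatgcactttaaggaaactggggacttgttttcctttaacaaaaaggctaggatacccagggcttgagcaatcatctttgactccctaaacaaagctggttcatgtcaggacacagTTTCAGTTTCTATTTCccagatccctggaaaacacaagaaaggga
Ifit3 (chr19:34583279-34583528, plus strand): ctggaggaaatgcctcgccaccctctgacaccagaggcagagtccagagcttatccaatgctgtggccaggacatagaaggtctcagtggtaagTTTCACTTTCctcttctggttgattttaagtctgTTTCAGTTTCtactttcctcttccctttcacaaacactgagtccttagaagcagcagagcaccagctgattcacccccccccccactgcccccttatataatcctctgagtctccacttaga
Oas3 (chr5:120777660-120777909, minus strand): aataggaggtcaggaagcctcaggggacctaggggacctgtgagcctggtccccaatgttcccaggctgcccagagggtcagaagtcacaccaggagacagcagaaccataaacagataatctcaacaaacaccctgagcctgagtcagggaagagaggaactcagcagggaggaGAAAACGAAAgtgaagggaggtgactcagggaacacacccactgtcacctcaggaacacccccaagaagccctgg
Tdrd7 (chr4:45972047-45972296, plus strand): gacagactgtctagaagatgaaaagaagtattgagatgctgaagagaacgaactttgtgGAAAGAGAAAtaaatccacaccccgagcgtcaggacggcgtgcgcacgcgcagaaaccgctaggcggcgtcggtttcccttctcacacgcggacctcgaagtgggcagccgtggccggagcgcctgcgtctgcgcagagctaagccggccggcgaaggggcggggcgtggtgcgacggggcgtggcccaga
Gbp3 and Ifit3 have 2 cores each, those of Gbp3 overlapping, and the last core ends 29 bases before the start in Gbp3, 65 in Oas3, 112 in Ifit3 and 181 in Tdrd7. Their levels fell by unequal amounts: Ifit3, an RNA-binding antiviral protein, was at 43.0 and 73.7 in WT and 19.7 and 27.3 in Def6-/- cells, Oas3 at 7.75 and 5.02 against 2.87 and 0.854, and Tdrd7, which has Tudor domains and inhibits virus-induced autophagy, at 56.5 and 62.8 against 41.9 and 38.4.

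**Figure D2:**
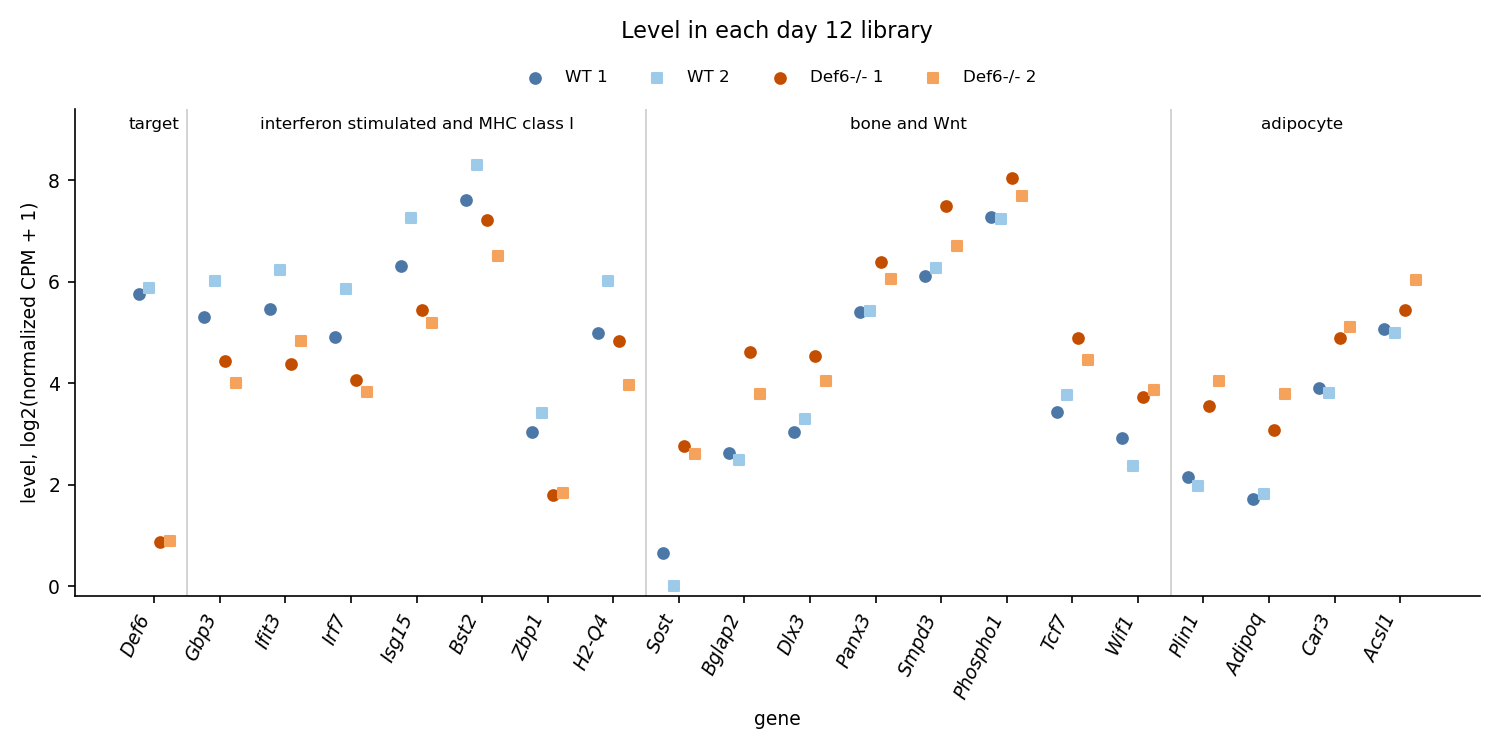
Level in each day 12 library (log2(normalized CPM + 1), vertical axis) of Def6 and of genes called by limma in 3 groups, with WT in blue and Def6-/- in orange, circles for replicate 1 and squares for replicate 2. For each gene shown the 2 libraries of a genotype lie on the same side of the other genotype, and for ISGs such as Isg15 and Irf7 the WT replicate 2 square stands above WT replicate 1.

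Genes of osteoblast differentiation and bone matrix lay mostly higher in Def6-/- cells. Of 52 compared, 8 were higher, against 0.803% of all genes, and 1 was lower. Both Def6-/- libraries lay above both WT libraries for 33 of the 52, against 16.9% of all genes, and the median log2 fold change was 0.33. Without Def6-/- replicate 1 the number called higher was 2, without Def6-/- replicate 2 it was 9, without WT replicate 1 it was 3 and without WT replicate 2 it was 4, and the median then lay between 0.31 and 0.40. The mean level of the list was 6.91 and 6.79 in WT and 7.30 and 7.17 in Def6-/- libraries.

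The osteoblast genes called higher act in mineralization and in its transcriptional control. Bglap2, an osteocalcin gene, was at 5.17 and 4.61 normalized CPM in WT and 23.4 and 12.8 in Def6-/- cells (log2 fold change 1.64, standard error 0.38), although reads of Bglap, Bglap2 and Bglap3 can be exchanged between these near-identical copies. Phospho1, the phosphatase that starts mineral formation in matrix vesicles, was at 153 and 150 against 262 and 205 (0.61, standard error 0.23). Smpd3, a sphingomyelinase needed for bone mineralization, was at 68.6 and 76.2 against 179 and 104.
In each of these genes Def6-/- replicate 1 was above replicate 2. The channel protein gene Panx3 was at 41.3 and 41.9 against 82.9 and 65.3, and Ifitm5, an osteoblast membrane protein, at 12.1 and 10.5 against 18.1 and 23.5. Of the homeobox factors, Dlx3 (7.17 and 8.79 against 22.2 and 15.4) and Dlx5 (20.7 and 18.4 against 29.1 and 29.0) were higher and Msx2 was lower (52.5 and 54.4 against 32.4 and 41.8, log2 fold change -0.53). Sp7, or osterix, which is required for osteoblast formation, was at 67.4 and 72.9 against 107 and 96.0 and was not called.

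The most abundant matrix genes did not pass. Col1a1, the major collagen of bone, was at 44110 and 55692 in WT and 63678 and 54348 in Def6-/- cells, and Sparc, or osteonectin, at 13706 and 14733 against 17539 and 15730. Of 27 collagen chains 1 was higher, Col22a1, a minor collagen of tissue junctions, at 13.2 and 18 against 77.2 and 36.7 (log2 fold change 1.72, standard error 0.46), and without Def6-/- replicate 1 it was 0 of 27. Among cartilage genes Col9a3, a chain of collagen IX, was lower (202 and 229 against 132 and 147, -0.63), with 1 of 16 called, and 0 were called when any 1 library was left out.

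Among 14 osteocyte genes, 7 had both Def6-/- libraries above both WT libraries, against 16.9% of all genes. Osteocyte genes were called higher in 3 of 14 cases, against 0.803% of all genes, and lower in 0, with a median of 0.36. This median was 0.62 without WT replicate 1, 0.24 without Def6-/- replicate 1 and 0.07 over the 11 genes that pass a minimum of 5 CPM. Sost, which encodes sclerostin, had 2 and 0 reads in WT and 14 and 12 reads in Def6-/- libraries, a ratio of 16 with a 95% interval for counting error of 4 to 139. It passed the CPM minimum in the Def6-/- group only, so it had to differ. Ptprz1, a receptor phosphatase, was at 25.8 and 24.3 against 110 and 39.3, and Spns2, an exporter of sphingosine 1-phosphate, at 22.4 and 16.3 against 59.9 and 28.6. In both, Def6-/- replicate 1 was over 2-fold above replicate 2, and without it 1 osteocyte gene was called higher. Dmp1, a matrix protein of early osteocytes, varied more within a genotype than between them, at 251 and 56.9 in WT and 91.1 and 161 in Def6-/- cells.

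In the Wnt pathway, 14 of 40 genes had both Def6-/- libraries above both WT libraries and 3 had both below, against 16.9% and 15.9% of all genes. The median of the 40 was 0.08, 0 were called lower and 4 were called higher, against 0.803% of all genes. Apart from Sost these were Wif1, a secreted inhibitor of Wnt ligands (6.60 and 4.19 in WT, 12.3 and 13.7 in Def6-/-), the ligand Wnt9a (5.74 and 5.44 against 9.03 and 9.82) and Tcf7, a transcription factor of the pathway (9.76 and 12.6 against 28.7 and 20.9, log2 fold change 1.08, standard error 0.30). The 4 genes thus comprise 2 secreted inhibitors, 1 ligand and 1 nuclear factor, and without WT replicate 2 or either Def6-/- library the number called higher was 2. In the BMP and TGF-β pathway 1 of 44 genes was higher, the ligand Bmp5 (1.72 and 0.419 against 2.05 and 6.4), whose Def6-/- libraries differed by over 2-fold.

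Of 32 adipocyte genes, 14 had both Def6-/- libraries above both WT libraries and 2 had both below, against 16.9% and 15.9% of all genes. Adipocyte genes were called higher in 7 of 32 cases, against 0.803% of all genes, and lower in 0, with a median of 0.22. The median was 0.12 without WT replicate 2, and over the 23 genes that pass a minimum of 5 CPM it was 0.02, with 13 positive and 2 called. Of the called genes, Adipoq, Cfd and Rbp4 passed the CPM minimum in the Def6-/- group only, so they had to differ. Plin1, the coat protein of lipid droplets, was at 3.44 and 2.93 normalized CPM in WT and 10.7 and 15.4 in Def6-/- cells (log2 fold change 1.73, standard error 0.38). Adipoq, the hormone adiponectin, was at 2.30 and 2.51 against 7.39 and 12.8 (1.66, standard error 0.39). Car3, a carbonic anhydrase abundant in fat, was at 14.1 and 13 against 28.7 and 33.3 (1.14, standard error 0.32).
These 3 genes were called without each library in turn, and in each the Def6-/- replicate 2 library was the highest. Acsl1, which activates fatty acids, was at 32.4 and 30.6 against 42.3 and 64.9, and Fabp4, a fatty acid carrier, at 11.5 and 7.96 against 21.3 and 28.6. Cfd, or adipsin, had 2 and 1 reads in WT and 8 and 15 in Def6-/- libraries, a ratio of 9.42 (95% interval for counting error 2.85 to 49.0). Rbp4, the carrier of retinol, was at 2.87 and 1.26 against 5.34 and 6.4. Lpl, or lipoprotein lipase, which releases fatty acids for uptake, was at 278 and 297 against 368 and 355 and was not called, and the adipogenic regulators Pparg and Cebpa had log2 fold changes of -0.13 and -0.05. Without a single library, 4 or 5 of the 32 were called higher.

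**Figure D3:**
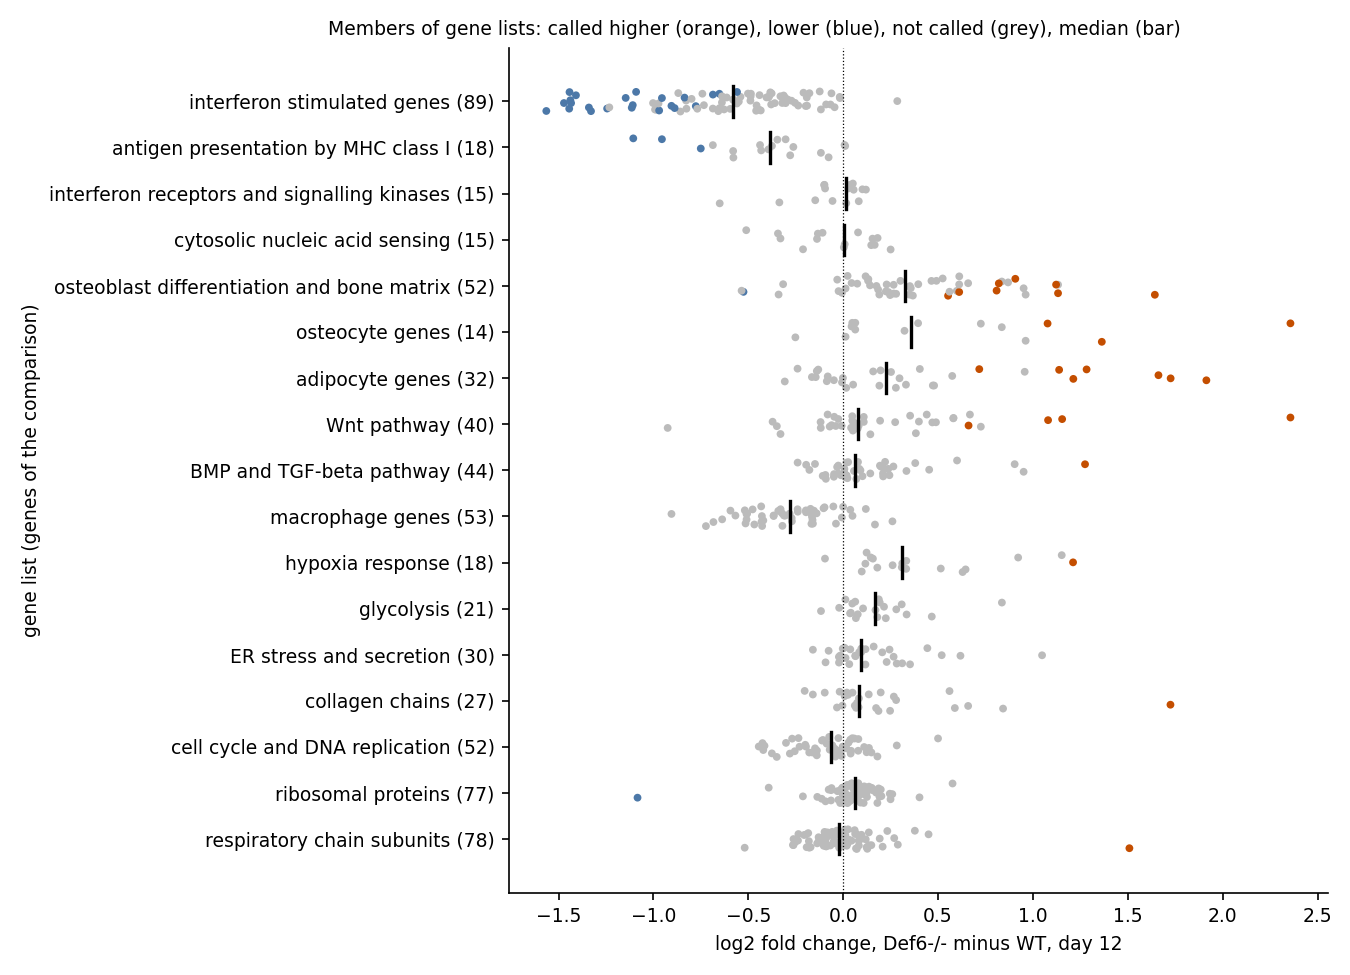
Log2 fold change (Def6-/- minus WT, horizontal axis) of each member of 17 gene lists, with called genes in orange (higher) or blue (lower), other genes in grey and the list's median as a bar; the number of genes compared stands after each name. The ISG and MHC class I lists lie left of 0, the osteoblast and osteocyte lists lie mostly right of it, and the cell cycle, ribosomal and respiratory chain lists are centred near 0.

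Cells other than osteoblasts were looked for by their markers. Of 53 macrophage genes 0 were called, 48 had a negative value and the median was -0.28. That median rested on WT replicate 1: the mean level of the list was 6.21 and 5.49 in WT and 5.59 and 5.53 in Def6-/- libraries, and without WT replicate 1 the median was 0.10. Lyz2, the macrophage lysozyme, was at 4048 and 1926 against 2483 and 2155, and Cd68, a lysosomal marker of macrophages, at 197 and 100 against 136 and 104. The WT library with the lower macrophage level, replicate 2, had the higher ISG level, and the 2 lists share no gene. The part of macrophage content in the ISG result was not tested beyond these values. Marker lists of neutrophils, mast cells and erythroid cells had no gene above the CPM minimum, and those of T and NK cells, B cells and endothelial cells had 2, 1 and 3, of which 0 were called.

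Osteoclast genes, of which 7 were compared, had 1 lower gene, Clcn7, the lysosomal chloride exchanger, at 101 and 76.2 in WT and 68.6 and 47.8 in Def6-/- cells, and it too lies near Def6. A further 3 osteoclast genes were left out because their values are not whole reads, as were macrophage markers such as Adgre1, Csf1r and Itgam. Among chemokines and their receptors the scavenger receptor Ackr3 was higher (20.9 and 12.6 against 27.1 and 27.3) and the chemokine Ccl4 was lower (4.30 and 3.35 against 1.23 and 1.28), with 16 genes compared. Counted in reads, Ccl4 was 3.12 times lower, with a 95% interval for counting error of 1.23 to 9.36. Matrix proteases and inhibitors had 2 of 26 higher, the inhibitor Timp3 (671 and 604 against 886 and 821, log2 fold change 0.42, standard error 0.17) and the protease Adamts15 (3.16 and 2.51 against 6.16 and 7.68). Ccl4 and Timp3 lost their call when any 1 library was left out.

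Lists of basic cell functions had few called genes. Of 52 cell cycle and DNA replication genes 0 were called and the median was -0.06. Of 77 ribosomal protein genes 1 was called, Rps2, and the median was 0.06, and of 78 respiratory chain subunits 1 was called, the lung-type subunit Cox4i2 (8.61 and 2.09 against 18.9 and 11.1), with a median of -0.02. Without Def6-/- replicate 1 the cell cycle and ribosomal medians were 0.03 and -0.06. Lists of glycolysis and of ER stress and secretion had 0 called and medians of 0.17 and 0.10. These too moved with Def6-/- replicate 1, without which glycolysis had a median of -0.06 with 8 of 21 genes positive, in place of 19, and ER stress and secretion one of 0.02 with 16 of 30 positive, in place of 23. Without Def6-/- replicate 2, 3 genes of glycolysis and 5 of ER stress and secretion were called higher.

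Of 18 genes of the hypoxia response, 17 had a positive value, the median was 0.31 and 1 was called, Stc2, a secreted stanniocalcin (3.16 and 2.09 in WT, 10.3 and 5.12 in Def6-/-). However, its mean level was 5.80 in Def6-/- replicate 1 and 5.01 in replicate 2, against 5.22 and 4.77 in WT. Without Def6-/- replicate 1 the median was 0.01, with 9 of 18 genes positive.

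**Figure D4:**
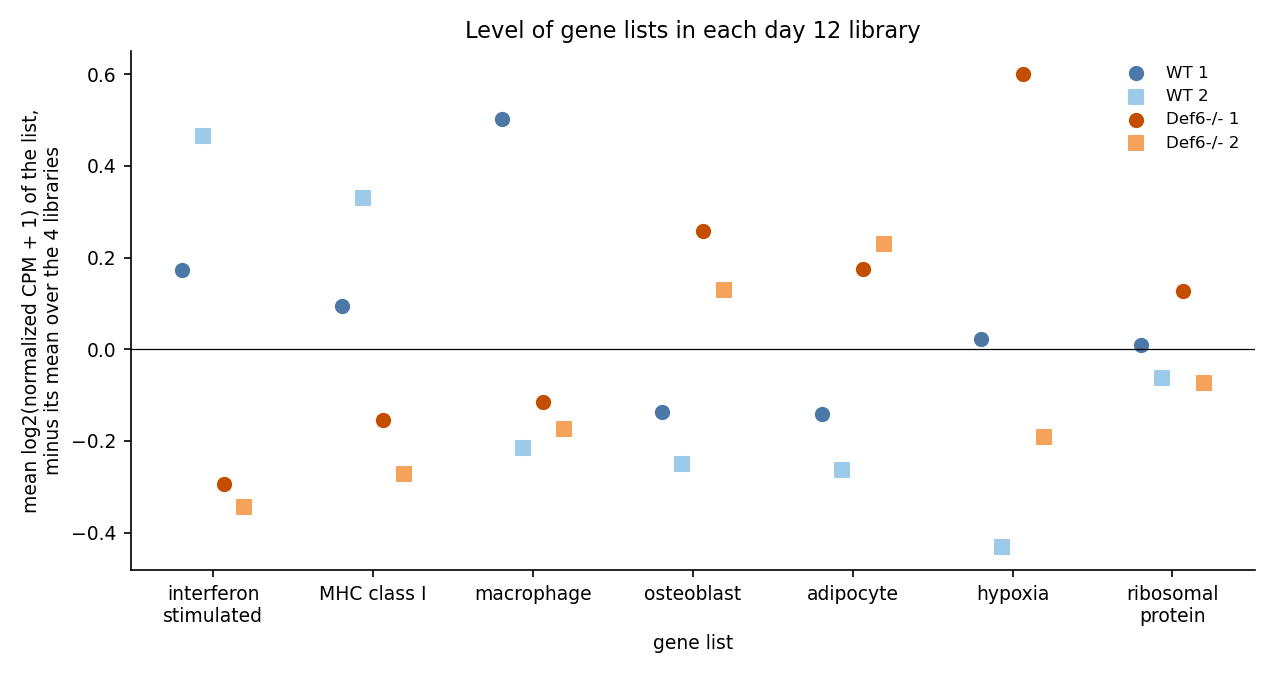
Mean log2(normalized CPM + 1) of 7 gene lists in each day 12 library, minus the list's mean over the 4 libraries (vertical axis), with WT in blue, Def6-/- in orange, circles for replicate 1 and squares for replicate 2. WT libraries lie above Def6-/- libraries for the ISG and MHC class I lists and below them for the osteoblast and adipocyte lists, whereas WT replicate 1 alone is high for macrophage genes and Def6-/- replicate 1 alone for hypoxia genes.

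Def6 lies on chromosome 17, and the genes around it were counted apart. Within 20 Mb of Def6, 15 of 395 genes were called (3.80%), 4 higher and 11 lower, against 1 of 183 on the rest of the chromosome (0.546%) and 151 of 11472 on other chromosomes (1.32%). The difference between these shares was not tested, and without Def6-/- replicate 2 it was not seen, with 6 genes called near Def6 (1.52%) and 1.56% of all other genes called, while without WT replicate 2 there were 7 (1.77%) against 0.822%. Glo1, which detoxifies methylglyoxal, lies 2.36 Mb from Def6 and was at 41.9 and 36.4 normalized CPM in WT and 85.0 and 97.8 in Def6-/- cells (log2 fold change 1.2, standard error 0.24). Btbd9, 1.99 Mb away, was at 26.1 and 26.8 against 47.2 and 44.4 (0.77, standard error 0.20). Both were called under every alternative setting. On the other side of Def6, Rps2 was at 125 and 138 against 68.2 and 55.5 (-1.08, standard error 0.33), with the limit that ribosomal protein genes have near-identical pseudogenes.
The other called genes of this stretch were Dnah8, a dynein, and Tnfrsf21, a death receptor, which were higher, and Zfp52, Zfp944, Zfp40, Rnps1, Clcn7, Fgd2, Lst1, H2-Q4, H2-T23 and Ptchd4, which were lower. Of the 15, Zfp52, Zfp40, Rnps1, Rps2, Glo1, H2-T23 and Tnfrsf21 also had an unadjusted p under 0.05 at day 0 by limma, each with the same sign. Of the called class I genes, H2-Q4 and H2-T23 thus belong to this stretch too, while Nlrc5 lies on chromosome 8.

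**Figure D5:**
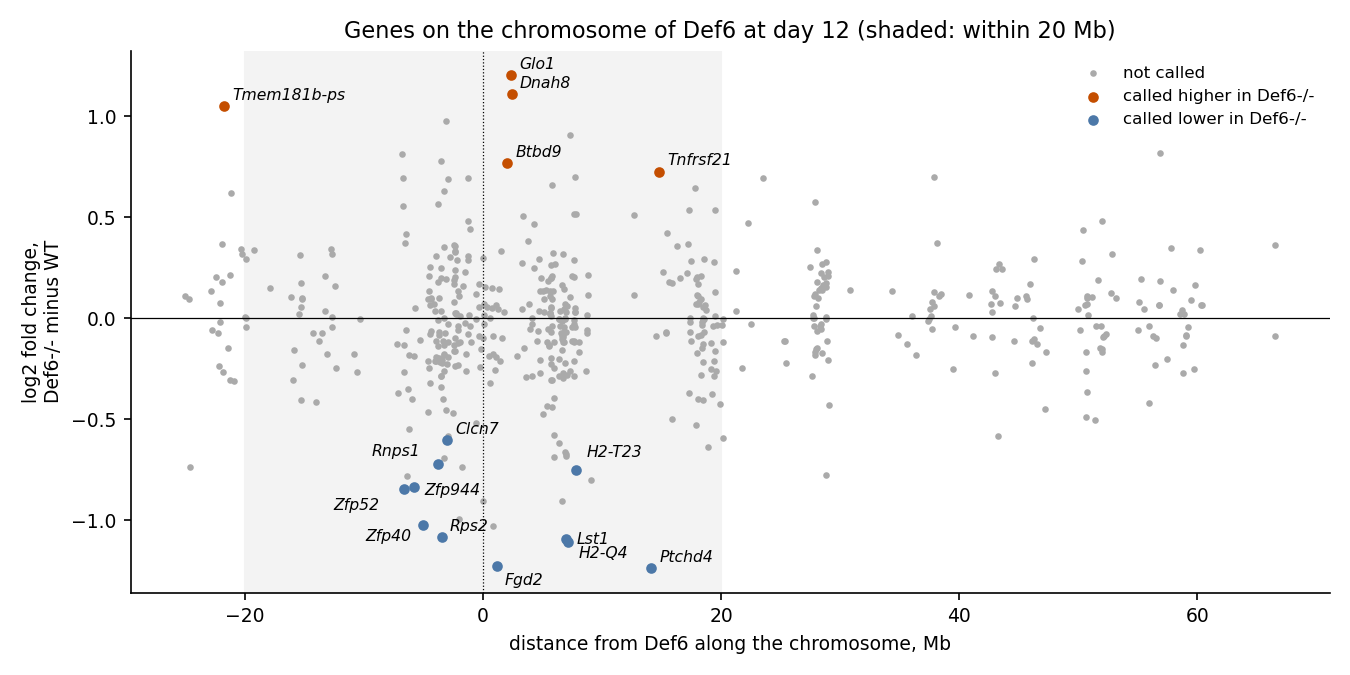
Log2 fold change (Def6-/- minus WT, vertical axis) of genes on the chromosome of Def6 against their distance from Def6 in Mb (horizontal axis), with called genes named and the stretch within 20 Mb shaded. In the shaded stretch 15 genes are called, and beyond it 1 is, Tmem181b-ps.

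Outside all gene lists, 66 genes were higher and 40 were lower. Among the higher genes of smallest p, Angpt4, a ligand of the Tie2 receptor, was at 3.73 and 3.35 in WT and 9.85 and 12 in Def6-/- cells, and Cadm1, a cell adhesion molecule, at 20.7 and 23.9 against 56.2 and 36.3. The potassium channel gene Kcnk1 was at 20.4 and 13 against 39.0 and 27.3, and the secretogranin gene Scg2 at 3.73 and 8.37 against 17.7 and 19.2. Cell polarity gene Pard6g showed close replicates, at 32.1 and 32.7 against 46.8 and 54.6 (log2 fold change 0.63, standard error 0.19). Genes of few reads in this group were Ppfia2, a liprin (1.15 and 0.419 against 6.16 and 4.70), and Car10, a carbonic anhydrase-related protein (2.01 and 2.51 against 5.75 and 6.4). Ppfia2 and Car10 passed the CPM minimum in the Def6-/- group only.

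Among the lower genes outside the lists, Vat1l was at 12.1 and 10.9 in WT and 3.28 and 4.70 in Def6-/- cells (log2 fold change -1.33, standard error 0.40), and Ptchd4, a protein with a patched domain, at 16.1 and 13.8 against 4.52 and 7.26. Ccdc91, a coiled-coil protein of the trans-Golgi, had the closest replicates of these, at 41.6 and 45.6 against 28.7 and 28.6 (-0.59, standard error 0.20). The forkhead factor Foxd1, which is on the list of skull and limb position genes, was also lower, at 143 and 152 against 118 and 101.

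The 169 called genes were then followed back to day 0, where the same rule called 116 of the 12080 genes higher (0.96%) and 156 lower (1.29%). Of the genes higher at day 12, 57 of 97 (58.8%) had the same sign at day 0 and 7 were also called, and of the lower genes 46 of 72 (63.9%) had the same sign and 10 were also called, while 0 were called the opposite way. Over all genes 54.9% had the same sign at both times, with 47.0% of genes higher and 52.8% lower at day 0. These shares moved with the scaling: with CPM as deposited, 63.7% of genes were higher at day 0, and 73.2% of the higher and 54.2% of the lower genes had the same sign there. The median of the ISG list was -0.14 at day 0 and that of the osteoblast list 0.04. Within the ISGs, Isg15 and Bst2 had log2 fold changes of -1.65 and -1.07 at day 0, close to their values at day 12, while Gbp3 and Zbp1 had -0.14 and -0.03. The change between times was tested by the interaction of genotype and day, which passed adjustment at 0.05 for 0 genes by limma, and 29 of the 97 higher and 17 of the 72 lower genes had an unadjusted p under 0.05. That test took the day 0 and day 12 libraries as independent.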

How the data were processed

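Poly-A RNA was sequenced on an Illumina instrument. Per the labels and the study's methods, the authors used fastp for trimming, HISAT2 for alignment to mm10 and HTSeq for counting, and the deposited unit is CPM from edgeR, relative to all reads, with those outside genes included. Versions and the strand setting are not given in the sources used here, so antisense partners cannot be told apart. Whole reads were recovered for 99.957% of 114821 positive CPM values (within 0.01 read). The other 49 values lie in 9 marker genes of macrophages and osteoclasts, which were left out of list counts and count tests, as were the 5 summary categories of HTSeq from library sizes. These genes are Acp5, Adgre1, Cd14, Csf1r, Ctsk, Fcgr3, Itgam, Itgb3 and Ptprc.

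CPM was rescaled to reads on genes with TMM, and limma 3.58.1 (trend) was fitted to log2(CPM + 1) of all 8 libraries, with 4 group means, over 12348 genes with a mean CPM of at least 1 in a group. Replicates, which the study calls biological, differed by more than counting noise (mean chi-square per gene 9.88 in WT and 3.70 in Def6-/- at day 12). These means include Rn45s, which was at 4374 and 42433 normalized CPM in WT and 5456 and 17655 in Def6-/- libraries. They were not computed without it, so they do not compare the spread of a typical gene between genotypes. The p-values measure only the spread between these libraries. edgeR 4.0.16 and DESeq2 1.42.0 on recovered reads were alternatives, in R 4.3.3. The fit was run on simulated data with the same dispersion for all genes and groups, so it was not tested at the replicate spread found here. Read ratios carry exact 95% intervals for counting error only, and depth limits genes with few reads.

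Genes were named by rule: those the study names, up to 25 of smallest p in each direction among non-overlapping genes of at least 5 normalized CPM, called and abundant members of lists, called genes within 20 Mb of Def6, those of largest change, and Swap70. Not every such gene is reported. Cd68, Cebpa, Dmp1, Ifitm2, Pparg, Sp7, Stat2 and Tmem181b-ps were named after their values were seen. The genes compared, the lists and the rules were chosen with earlier results of these data known.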

Additional observations from a re-analysis of the deposited data

How the results depend on the processing

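Depth and 2 libraries per genotype limit these results, and genes under 10 normalized CPM most of all. No called gene was called in the opposite direction in any alternative. When only the 4 day 12 libraries were fitted, 292 genes were called higher and 260 lower, with 55 ISGs lower, 24 osteoblast genes higher and 40 genes called near Def6. The quasi-likelihood test of edgeR on the same 4 libraries gave 314, 272, 56, 24 and 43, with 3 adjusted p-values under 0.05. In the limma fit of these 4 libraries, 561 of 12080 genes had an unadjusted p under 0.05, a share that is also under 0.05. DESeq2 called 59 higher, 22 lower, 14 ISGs and 7 near Def6, and a minimum of 5 CPM, which leaves 8668 genes, called 39 higher, 29 lower, 10 ISGs, 2 adipocyte genes and 9 near Def6. A pseudocount of 0.5 gave 13 lower ISGs and one of 5 gave 14 higher osteoblast genes. CPM as deposited gave 118 higher and 50 lower, so the higher share was 70.2% in place of 57.4%, and 72.8% with DESeq2. The cause of these differences was not tested, other than the number of genes or libraries used. Counts near Def6 by setting were added after the data were seen.

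Leaving out each library in turn, with the lone library taken to vary like the other groups, gave 51 to 120 higher and 45 to 69 lower genes, 0 to 1 adjusted p-values under 0.05 (limma, with 103 to 188 genes at an unadjusted p under 0.05), 5 to 20 lower ISGs, 2 to 9 higher osteoblast genes, 4 to 5 higher adipocyte genes and 6 to 13 genes near Def6. Among single genes, values of uncalled genes changed sign: Dmp1 was at -0.0026 without a filter, -0.30 by edgeR, -0.33 by edgeR on day 12 and -0.30 by DESeq2, and Cebpa was at 0.023 with CPM as deposited. Without 1 library, Dmp1 ran from -1.05 to 1.07, Cebpa from -0.22 to 0.12, Cd68 from -0.72 to 0.24, Lyz2 from -0.81 to 0.26, Ifitm2 from -0.036 to 0.61, Pparg from -0.39 to 0.13 and Swap70 from -0.12 to 0.28. Of 1556 values of 88 named genes, 243 lost their call, 13 gained it and 15 changed sign.

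The deviations of same-numbered WT and Def6-/- libraries at day 12 had a correlation of 0.04 over 11103 genes. With 2 libraries per genotype this is a single contrast, so it cannot show whether replicates were paired by litter or preparation. Pairing between the days was not tested. At day 0, Y-linked genes summed to 56.5 and 0 normalized CPM in WT replicates 1 and 2. In Def6-/- replicates 1 and 2 they summed to 0.376 and 103, the same pattern as at day 12. The fit took the libraries of both days as independent. With the replicate block, 115 genes were higher, 81 lower and 29 ISGs lower, and with the block on the 4 day 12 libraries 328, 270 and 56, with 24 osteoblast genes, 39 genes near Def6 and 5 adjusted p-values under 0.05 (limma).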

Other observations

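Differences between the libraries of a genotype at day 12 were in part larger than those between genotypes, with 232 genes over 2-fold apart between the WT libraries and 311 between the Def6-/- libraries, against 106 between the genotype means, each of which averages 2 libraries. The genes named here were chosen after their values were seen. Def6-/- replicate 1 was the library apart for a group of stress-related genes, each with overlapping libraries between genotypes or not called. Car9, a carbonic anhydrase induced by low oxygen, was at 27.3 and 10.9 normalized CPM in WT and 83.8 and 13.2 in Def6-/- cells. Vegfa, the vascular growth factor, was at 60.0 and 49.0 against 145 and 49.9. Trib3, a pseudokinase induced by amino acid stress, was at 9.18 and 10.5 against 43.9 and 5.12, and Asns, asparagine synthetase, was at 33.9 and 38.5 against 98.9 and 27.3.

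Some genes called higher shared this pattern. Mthfd2, an enzyme of mitochondrial folate metabolism, was at 31.6 and 26.4 in WT and 91.1 and 34.2 in Def6-/- cells, and Loxl4, a lysyl oxidase-like enzyme, at 37.6 and 26 against 139 and 38.0. Def6-/- replicate 1 was over 2-fold above replicate 2 in 10 of the 97 higher genes, and replicate 2 over 2-fold above replicate 1 in 4.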
